A study of Mus musculus with 4 samples.

Results

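Chemokines are small secreted proteins that draw leukocytes to a tissue, and 9 of the genes that encode them are described here in mouse blood: Ccl2, Ccl3, Ccl4, Ccl6, Ccl9, Cxcl2, Cxcl10, Cxcl13 and Cxcl16. They were found by symbol among the 32285 genes of the deposited matrices, and each of the 9 matched 1 gene. Mononuclear cells came from whole blood of BL/6 and SM/J mice aged 12 and 20 months, and were profiled with droplet-based single-cell sequencing of transcript 3′ ends. The 4 groups were BL/6 at 12 months, BL/6 at 20 months, SM/J at 12 months and SM/J at 20 months, all untreated as far as the labels say, with no sex or number of animals given. Both ages of a strain were tagged and run together in 1 multiplexed sample, so there were 2 gene expression samples, and the 4 groups are their demultiplexed cells, deposited as 1 matrix each. No comparison between groups has a replicate, so no test was made and no p-value is given, and strain and run cannot be told apart.

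Monocytes leave the bone marrow as classical cells, which enter inflamed tissue, and part of them turn into nonclassical cells, which patrol vessel walls. Macrophages of the body cavities are resident cells that are not normally found in blood. CC chemokines such as Ccl2 act mainly on monocytes, T cells and other leukocytes, and Cxcl2 acts on neutrophils through its receptor Cxcr2. Cxcl13 draws B cells through Cxcr5, Cxcl10 draws activated T cells through Cxcr3 and is induced by interferon, and Cxcl16 is made as a membrane-bound protein that proteases of the Adam family release.

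Of 12299 deposited cells, 11596 were kept. The 4 groups held 3398, 3102, 2407 and 2689 of them, in the order BL/6 at 12 months, BL/6 at 20 months, SM/J at 12 months and SM/J at 20 months. Values listed without names below keep that order. The deposited matrices summed to between 14250603 and 30627357 unique molecular identifiers (UMIs, each a tagged transcript molecule) per group, and the median kept cell had 4060, 4914, 4729 and 8837 UMIs. No barcode was shared between the ages of a strain, and 1 to 3 were shared across strains. Cells were clustered without any chemokine or chemokine receptor gene, and clusters were named from marker genes. Classical monocyte-like cells numbered 246, 463, 122 and 106, and nonclassical monocyte-like cells 349, 705, 399 and 167. Most classical cells of BL/6 sat in cluster 4 and most of SM/J in cluster 23. Nonclassical cells of BL/6 sat mostly in cluster 7 and those of SM/J in clusters 22 and 17, and cluster 17 also carried B cell transcripts. Macrophages of the body-cavity type were taken as cells with at least 5 UMIs of Prg4, a gene such macrophages express, and numbered 29, 38, 35 and 397. Between 0 and 5 cells per group had 5 to 9 Prg4 UMIs, just inside that minimum, and a minimum of 2 would give 37, 48, 73 and 443 cells. The 8 markers of this type summed to between 9880 and 13930 counts per 1000000 UMIs (CPM) in the Prg4-gated macrophages, against 160 to 271 CPM in classical monocyte-like cells. Prg4 is itself among these 8 markers, so part of this difference was set by the choice of cells. The 4 groups held 150, 173, 1 and 0 platelet-like cells.

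A CPM below is the UMI sum of a gene over all cells of a class and group, divided by the class's total UMIs. Differences are log2 ratios of CPM + 1, followed by a 95% interval that covers counting error only. A gene is called apart when the ratio is at least 2-fold and the 2 sums hold at least 50 UMIs together, and the share of all such genes that were apart is given as background. Each group held 3 tag aliquots, cells that shared a tag oligo. No label says that a tag marks an animal, so the aliquots are no replicates, and their values only show the spread within a group.

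In the GRCm38 annotation 6 of the 9 genes lie on chromosome 11 and 3 on chromosome 5, all protein-coding. Ccl9 (chr11:83572919-83578636), Ccl6 (chr11:83587882-83593087), Ccl3 (chr11:83647844-83649355) and Ccl4 (chr11:83662584-83664683) are neighbours in 1 block, the first 3 on the minus strand and Ccl4 on the plus strand. Ccl2 (chr11:82035571-82037453, plus) and Cxcl16 (chr11:70453983-70459984, minus) lie apart from that block. Cxcl2 (chr5:90903871-90905938, plus), Cxcl10 (chr5:92346638-92348889, minus) and Cxcl13 (chr5:95956951-95961068, plus) are on chromosome 5. A gene on the opposite strand overlaps 4 of them: Gm17268 at Ccl2, E230016K23Rik at Ccl6, Art3 at Cxcl10 and Zmynd15 at Cxcl16. The sources used here do not give the strand setting of the counting, so the UMIs of these 4 genes are uncertain to that extent.

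RefSeq promoter sequences (GRCm38.p6) were at hand for 6 of the 9 genes. Stretches of 4 are printed: Cxcl2 and Cxcl10 because they were the members past 2-fold between strains in classical cells at 12 months, and the neighbours Ccl6 and Ccl9 because their levels followed each other across cell classes. Capitals mark motif matches, and positions count from the base before the start site, which is -1. The kappaB consensus, bound by NF-kB, matched Cxcl2 at -97 on the plus strand, overlapping a match on the other strand. In Cxcl10 the capitals are, from left to right, the interferon response motif GAAANNGAA, 2 kappaB matches and the AP-1 motif TGANTCA. In Ccl6 and Ccl9 they are GGAAGTG, an Ets-type motif, read on the other strand. The Ccl9 stretch also holds TGANTCA at -53 and, on the other strand, the kappaB consensus at -35, both left in lower case.
Cxcl2 (chr5:90903779-90903869, plus): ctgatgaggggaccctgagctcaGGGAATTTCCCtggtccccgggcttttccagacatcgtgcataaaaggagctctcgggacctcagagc
Cxcl10 (chr5:92348949-92349119, minus): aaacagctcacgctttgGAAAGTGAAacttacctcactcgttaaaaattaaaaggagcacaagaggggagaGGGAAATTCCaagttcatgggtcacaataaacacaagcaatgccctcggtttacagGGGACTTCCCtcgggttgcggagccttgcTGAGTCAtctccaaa
Ccl6 (chr11:83593088-83593187, minus): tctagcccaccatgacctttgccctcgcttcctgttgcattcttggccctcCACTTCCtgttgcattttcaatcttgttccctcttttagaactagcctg
Ccl9 (chr11:83578637-83578736, minus): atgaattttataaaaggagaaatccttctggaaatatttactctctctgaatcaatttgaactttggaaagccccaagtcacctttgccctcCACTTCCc

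The Ccl6 and Ccl9 stretches share a run of 13 bases that includes the marked motif, starting at -55 in Ccl6 and at -14 in Ccl9. Among 32851 RefSeq promoter windows of 250 bases upstream, searched on both strands, 3.9% held the kappaB consensus, 7.13% GAAANNGAA, 6.75% TGANTCA and 8.55% GGAAGTG. Cxcl10 was the only one of the 6 windows with 2 separate kappaB matches. A match describes letters in a window and says nothing about binding.

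The 9 chemokines fell into different cell classes. Ccl2 was high in classical monocyte-like and Prg4-gated cells, Cxcl16 was highest in Prg4-gated cells of each group, and Ccl6 and Ccl9 were high in both classes and in basophil-like cells. Cxcl2 and Cxcl13 were concentrated in the Prg4-gated macrophages. The 11 neutrophil-like cells of BL/6 at 20 months, too few for a class of their own in the comparisons, stood higher still in Cxcl2, at 5335 CPM, and held Ccl2 at 403 CPM, with all 16 Ccl2 UMIs in 2 cells. Ccl3 and Ccl4 were concentrated in basophil-like and NK cell-like cells, and Cxcl10 was rare everywhere.

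**Figure D1:**
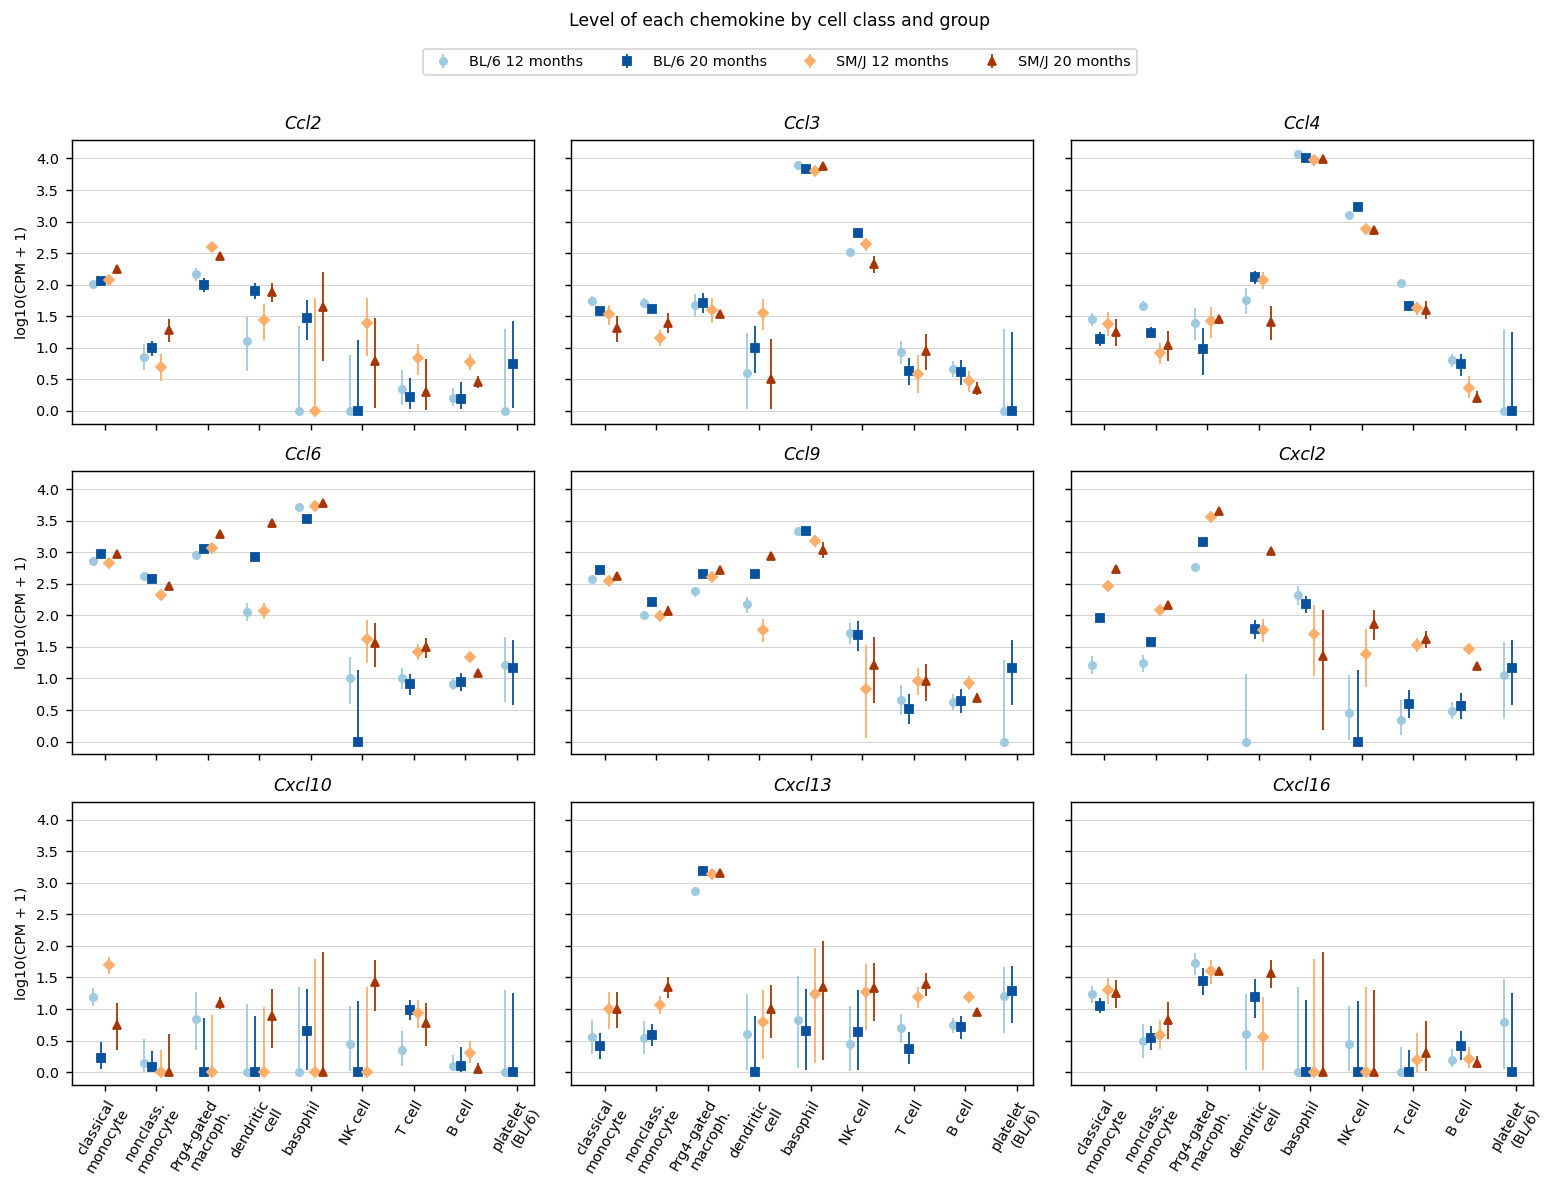
Level of each of the 9 chemokines (log10 of CPM + 1) in 9 cell classes, 1 point per group where the class has at least 10 cells there, with 95% Poisson intervals; neutrophil-like and unnamed cells are not drawn. Among the classes drawn, the Prg4-gated macrophages carry the highest Cxcl2 and Cxcl13, the basophil-like cells the highest Ccl3 and Ccl4, and the highest Ccl2 of each group is in classical monocyte-like or Prg4-gated cells.

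Ccl2, the ligand of Ccr2 that brings classical monocytes out of the marrow, was expressed by classical and hardly by nonclassical monocyte-like cells. In classical cells it stood at 101, 115, 119 and 174 CPM, from 235, 514, 108 and 153 UMIs. In nonclassical cells of the same groups it stood at 6.26, 8.87, 3.93 and 18.3 CPM. The classical level was the higher one in all 4 groups, and the intervals of the classes did not overlap in any of them. The log2 ratios, nonclassical over classical, were -3.82 (-4.53 to -3.14), -3.56 (-3.99 to -3.14), -4.61 (-5.37 to -3.87) and -3.18 (-3.86 to -2.56). A Ccl2 UMI was found in 33.7%, 33.9%, 33.6% and 40.6% of classical cells, and in 3.44%, 4.68%, 2.26% and 8.38% of nonclassical cells.

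At 12 months in SM/J the nonclassical level of Ccl2 was close to that of stray RNA. B cell-like cells, which should not make Ccl2, held 0.0025, 0.0021, 0.0265 and 0.0230 UMIs per cell. Nonclassical cells held 0.0430, 0.0610, 0.0301 and 0.132 UMIs per cell, and classical cells between 0.885 and 1.44. In SM/J the nonclassical and B cell values thus overlapped within counting error at 12 months, but at 20 months the nonclassical value was the higher one. Prg4-gated macrophages held Ccl2 at 147, 98.9, 389 and 289 CPM, above the classical cells of SM/J and, in BL/6, with an interval that overlapped the classical one at 20 months.

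Neither age nor strain moved Ccl2 by 2-fold in classical cells. The age ratio, 20 over 12 months, was 0.18 (-0.04 to 0.41) for BL/6 groups and 0.54 (0.18 to 0.91) for SM/J groups. SM/J over BL/6 gave 0.24 (-0.10 to 0.57) at 12 months and 0.59 (0.32 to 0.85) at 20 months. In the Prg4-gated macrophages SM/J stood higher at both ages, by 1.40 (1.01 to 1.80) and 1.54 (1.17 to 1.94).

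Ccl6 and Ccl9, rodent CC chemokines that signal through Ccr1, were the most widely detected chemokines of the monocytes. Ccl6 was found in 95.5%, 97.4%, 95.1% and 95.3% of classical cells, and Ccl9 in 87.4%, 92.7%, 82.0% and 84.0%. Ccl6 stood at 737, 935, 675 and 924 CPM in classical cells and at 415, 372, 210 and 286 CPM in nonclassical cells. Ccl9 stood at 380, 518, 354 and 416 CPM in classical cells and at 101, 164, 97.2 and 117 CPM in nonclassical cells. Both genes were higher in classical cells in each of the 4 groups.

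Ccl9 passed 2-fold between the monocyte classes in all 4 groups, with ratios of nonclassical over classical from -1.89 to -1.65. Ccl6 passed it in 3, and its ratio at 12 months in BL/6 was -0.83 (-0.94 to -0.71). Of the 4 members with enough UMIs in every group (Ccl2, Ccl6, Ccl9 and Cxcl2), 2 (Ccl2 and Ccl9) were at least 2-fold lower in nonclassical cells in 4 of 4 groups. Of the 5397 genes with enough UMIs, 7.28% were at least 2-fold apart in 1 direction in all 4, 228 higher and 165 lower. Ccl2 had enough UMIs only through the classical cells, where it was high, so nothing is read from its part in the count. In 3 of the groups Cxcl2 was lower in nonclassical cells by -1.30, -1.30 and -1.88, and at 12 months in BL/6 the ratio was 0.07 (-0.58 to 0.72). Cxcl16 was lower in all 4, by -2.49, -1.70, -2.33 and -1.41, from too few UMIs to count.

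The levels of Ccl6 and Ccl9 in monocytes stayed within 2-fold between ages. In classical cells the BL/6 age ratio was 0.34 (0.26 to 0.42) for Ccl6 and 0.45 (0.33 to 0.56) for Ccl9. The SM/J age ratio was 0.45 (0.30 to 0.61) for Ccl6 and 0.23 (0.01 to 0.45) for Ccl9. The widest age ratio of the pair in monocytes was that of Ccl9 in nonclassical cells of BL/6, 0.69 (0.48 to 0.90), where Ccl6 gave -0.16 (-0.27 to -0.04). In nonclassical cells of SM/J it was 0.44 (0.25 to 0.64) for Ccl6 and 0.27 (-0.03 to 0.56) for Ccl9. Between strains, Ccl6 in classical cells gave a ratio of -0.13 (-0.26 to 0.01) at 12 months, and the ratio of the 20-month groups was -0.02 (-0.13 to 0.09). In nonclassical cells at 12 months Ccl6 was lower in SM/J by -0.98 (-1.13 to -0.84), just short of 2-fold. At 20 months that ratio was -0.38 (-0.55 to -0.21).

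Basophil-like cells, of which there were 40, 56, 15 and 11, held Ccl6 and Ccl9 at higher CPM than monocytes in every group. Ccl6 stood at 5296, 3380, 5442 and 6118 CPM there and Ccl9 at 2191, 2194, 1520 and 1099 CPM. Prg4-gated macrophages held Ccl6 at 914, 1118, 1185 and 1914 CPM and Ccl9 at 238, 443, 409 and 530 CPM. In BL/6 at 12 months the Ccl6 value rested on few cells: the 3 aliquots gave 668, 3045 and 347 CPM, the middle one from 4 cells. The 2 cells with 5 to 9 Prg4 UMIs held 211 of the 454 Ccl6 UMIs, and without them, under a minimum of 10 Prg4 UMIs, Ccl6 stood at 526 instead of 914 CPM. Because SM/J at 20 months had 397 Prg4-gated cells, these held 78.3% of that group's Ccl6 UMIs, against 8.01% to 25.1% in the other 3 groups.

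Cxcl2, which attracts neutrophils, had the widest ratio of the members with enough UMIs in each of the 4 comparisons of classical cells. In classical monocyte-like cells it stood at 15.5 CPM in BL/6 at 12 months (36 UMIs), 90.7 in BL/6 at 20 months (405 UMIs), 295 in SM/J at 12 months (267 UMIs) and 537 in SM/J at 20 months (472 UMIs). The 4 groups are thus in the order BL/6 at 12 months, BL/6 at 20 months, SM/J at 12 months, SM/J at 20 months, and no interval overlapped the next. A Cxcl2 UMI was found in 7.32%, 21.4%, 47.5% and 60.4% of classical cells. With each cell thinned to 1000 UMIs the shares were 0.826%, 5.84%, 20.5% and 22.6%, and those in B cell-like cells 0.499%, 0.211%, 3.29% and 1.87%.

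The aliquots kept the groups apart. In classical cells they gave 5.35, 16 and 28.6 CPM in BL/6 at 12 months and 106, 67.0 and 99.1 at 20 months. In SM/J they gave 314, 254 and 303 CPM at 12 months and 599, 400 and 624 at 20 months. No aliquot of one group overlapped the range of another.

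**Figure D2:**
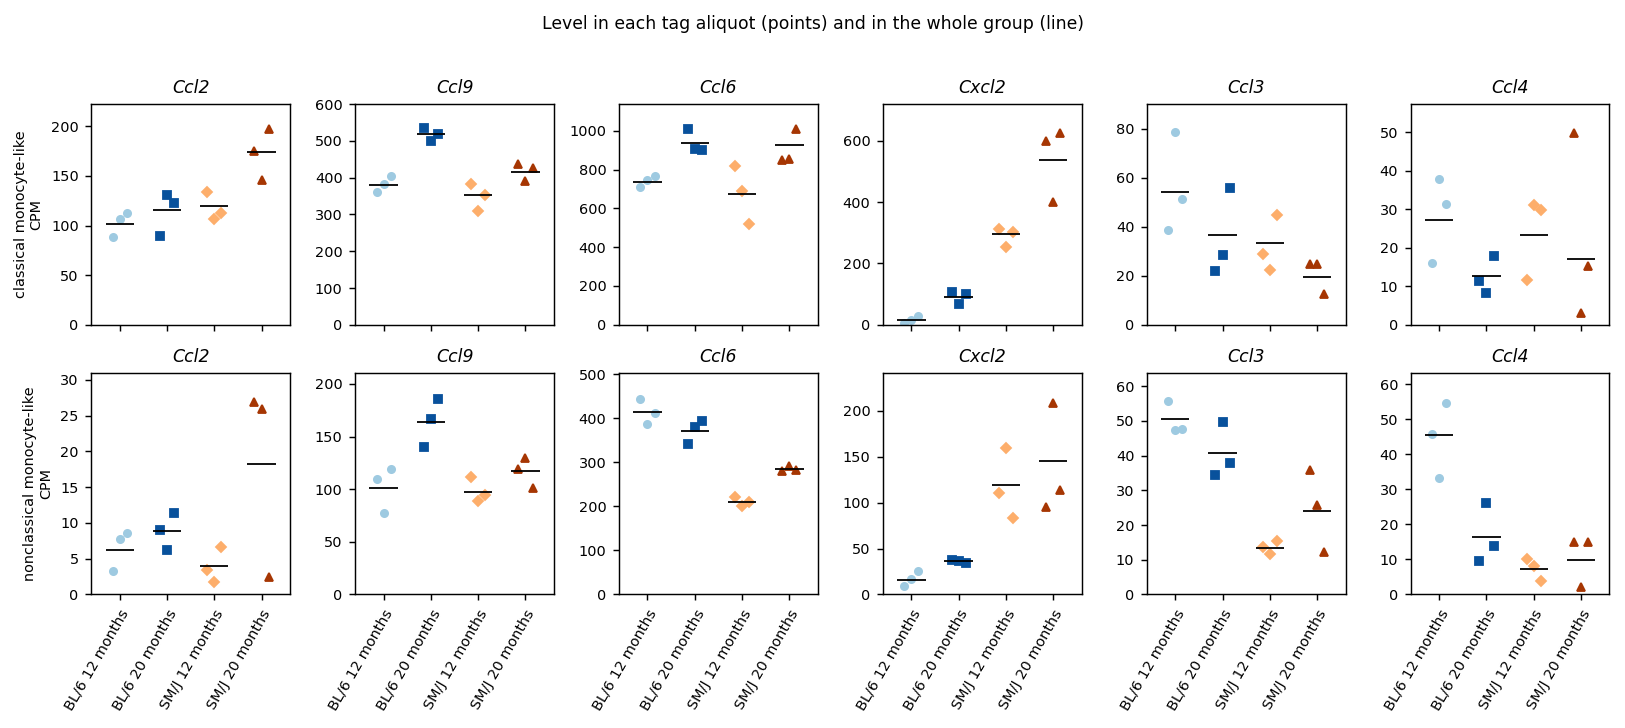
CPM of members in monocyte-like cells for each group (line) and for its 3 tag aliquots (points); the aliquots are cells sharing a tag oligo and not known to be separate animals. For Cxcl2 in classical cells the points run from 5.35 to 28.6 for BL/6 at 12 months and reach 400 to 624 for SM/J at 20 months, with no overlap between groups.

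The age ratio of Cxcl2 in classical cells was 2.47 (2.00 to 2.97) for BL/6, with SM/J at 0.86 (0.64 to 1.08). SM/J over BL/6 was 4.16 (3.68 to 4.67) at 12 months, and 2.55 (2.36 to 2.75) for the older groups. Nonclassical cells gave the same directions, at 16.3, 36.3, 119 and 145 CPM, below the classical level except in BL/6 at 12 months. Their age ratios were 1.11 (0.63 to 1.62) and 0.29 (0.02 to 0.55), and their strain ratios 2.80 (2.34 to 3.28) and 1.97 (1.67 to 2.28). Erythroid and B cell markers in nonclassical cells also differed between groups, with the values given below beside Ccl3 and Ccl4. The part of these transcripts in the nonclassical Cxcl2 ratios was not tested. Over other settings the nonclassical age ratio of SM/J ran from -0.17 to 0.89. Its aliquots gave 83.0, 111 and 160 CPM at 12 months, against 95.4, 114 and 209 at 20 months, and so overlapped between ages.

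Stray RNA was higher in SM/J and moved with the strain difference. B cell-like cells held 0.00898, 0.0105, 0.149 and 0.179 Cxcl2 UMIs per cell, where classical cells held 0.146, 0.875, 2.19 and 4.45 and nonclassical cells 0.112, 0.25, 0.912 and 1.05. T cell-like cells of SM/J held 0.158 and 0.179. Classical cells were thus above the B cells of their own group in all 4, and nonclassical cells too. Taking the B cell level per cell off each sum left ratios of 2.54 (age, BL/6), 4.15 (strain, 12 months) and 2.51 (strain, 20 months) in classical cells, and 1.16, 2.66 and 1.76 in nonclassical cells. The 8 markers of cavity macrophages summed to 258, 271, 160 and 192 CPM in classical cells, most of it Adgre1, which monocytes also carry and which stood at 210, 221, 101 and 114 CPM. Without Adgre1 the sums were 48.3, 50.4, 59.7 and 78.5 CPM in classical cells and 30.9, 37.7, 80.2 and 90.6 CPM in nonclassical cells, and so were higher in SM/J, as Cxcl2 was. With every cell that held a Prg4 UMI left out, the classical Cxcl2 ratios were 2.33 (age, BL/6), 0.78 (age, SM/J), 4.17 and 2.61 (strains, 12 and 20 months). SM/J reads were counted against a reference made from BL/6, and its part in the strain differences was not tested.

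**Figure D3:**
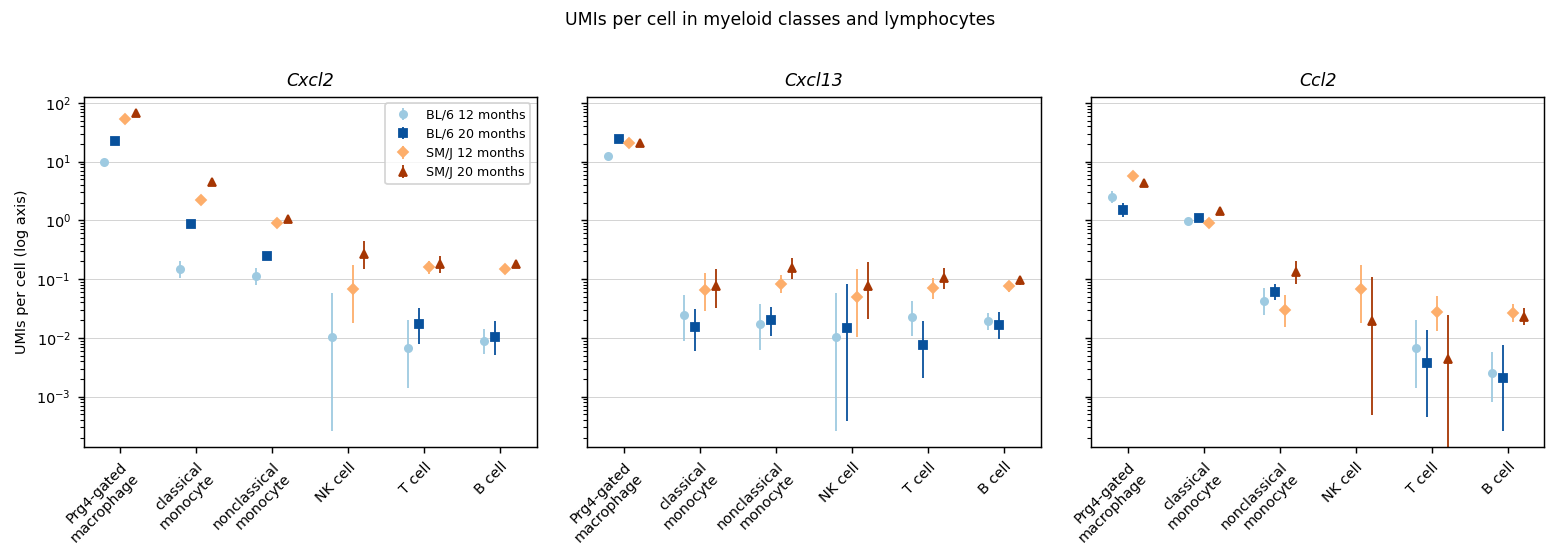
UMIs per cell (log axis) of members in monocyte-like, Prg4-gated, B, T and NK cell-like cells of each group; the lymphocyte values serve as the level of stray RNA, and classes at 0 UMIs are not drawn. Cxcl2 in classical cells lies above B cells in each group, whereas Cxcl13 in classical cells lies near the B cell value.

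Prg4-gated macrophages held most of the Cxcl2 in 3 of the 4 groups. They carried 64.6%, 48.8%, 66.9% and 94.4% of the group's Cxcl2 UMIs, at 580, 1450, 3598 and 4557 CPM. Every Prg4-gated cell of SM/J at 12 months, and 395 of 397 at 20 months, had a Cxcl2 UMI. In BL/6 it was 22 of 29 and 34 of 38. The ratio to classical cells of the same group was 5.14, 3.98, 3.6 and 3.08, and that to nonclassical cells was 5.07, 5.28, 4.91 and 4.96.

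The order of groups in Prg4-gated cells was the same as in classical monocytes. The BL/6 age ratio was 1.32 (1.13 to 1.52), the SM/J one 0.34 (0.27 to 0.41). The strain ratio was 2.63 (2.45 to 2.82) for the younger and 1.65 (1.55 to 1.75) for the older groups. Markers of other cells also differed between groups in the Prg4-gated cells: the 6 classical monocyte markers summed to 254, 997, 333 and 200 CPM and the 6 erythroid markers to 34.2, 34.1, 5494 and 776 CPM. Their part in these ratios was not tested. The aliquots gave 538 to 619 CPM, 1006 to 1829, 3009 to 4122 and 4313 to 4981, with no overlap, from as few as 4 cells in 1 aliquot of BL/6 at 12 months.

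Cxcl13, the B cell attractant, was nearly confined to the Prg4-gated macrophages. They held 84.6%, 95.1%, 80.1% and 97.3% of its UMIs, at 739, 1565, 1388 and 1405 CPM. Classical cells held 0.0244, 0.0151, 0.0656 and 0.0755 UMIs per cell, and B cell-like cells 0.0195, 0.0168, 0.0748 and 0.0946. The classical values overlapped the B cell values within counting error in all 4 groups, so Cxcl13 of classical cells was not detectable above stray RNA. Nonclassical cells of SM/J at 20 months held 0.156 UMIs per cell (0.102 to 0.228), and 8.48 of their 21.6 CPM was left after the B cell level per cell was taken off. In the other 3 groups between -0.331 and 1.03 CPM was left in nonclassical cells.

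Within the Prg4-gated cells Cxcl13 was uneven. It was found in 41.4%, 84.2%, 82.9% and 77.6% of them, and the 3 highest cells held 56.4% of the UMIs in BL/6 at 12 months. Between ages it was higher by 1.08 (0.91 to 1.26) in BL/6, and in SM/J the ratio was 0.02 (-0.09 to 0.13). Between strains it was 0.91 (0.73 to 1.09) at 12 months and -0.16 (-0.25 to -0.06) at 20 months. The aliquots of SM/J at 12 months gave 565, 1755 and 1891 CPM, so they spanned most of the range seen across groups.

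Of the 6 members with enough UMIs in every group, Cxcl2 and Cxcl13 were at least 2-fold higher in Prg4-gated than in classical cells in 4 of 4 groups. Of 4334 genes, 9.21% were apart in 1 direction in all 4, 194 higher and 205 lower. Against nonclassical cells 5 of 6 were higher in 4 of 4 (Ccl2, Ccl6, Ccl9, Cxcl2 and Cxcl13). The background there was 14.1% of 5941 genes, 277 higher and 563 lower. With a minimum of 10 Prg4 UMIs in place of 5, Ccl6 and Ccl9 no longer counted, and 3 of 6 were left: in BL/6 at 12 months their ratios over nonclassical cells were then 0.34 and 0.83 on the log2 scale. Cxcl13 in every group, and Cxcl2 in BL/6 at 12 months, reached the minimum of 50 UMIs only through the Prg4-gated cells, where they were high. Against nonclassical cells this held for Ccl2 too, so nothing is read from the part of these members in the counts. Between ages 2 of 6 members with enough UMIs were apart in Prg4-gated cells of BL/6 (background 5.7%) and 1 of 9 in SM/J (7.45%). The 2 in BL/6 were Cxcl2 and Cxcl13 with the minimum of 5, and Cxcl2 and Ccl9 with a minimum of 10, where Cxcl13 had a ratio of 0.98 and Ccl9 one of 1.24. The 1 in SM/J was Cxcl10 alone, at 67 UMIs against 0, a call that rests on a ratio to 0. Between strains it was 2 of 5 at 12 months (10.3%) and 4 of 9 at 20 months (13.3%). With the minimum of 10 the count at 12 months was 4 of 5, because Ccl6 (1.17) and Ccl9 (1.16) then passed 2-fold along with Ccl2 and Cxcl2. The 4 at 20 months were Ccl2, Cxcl2, Ccl4 at 27.3 against 8.52 CPM (159 against 5 UMIs), and Cxcl10 (67 against 0 UMIs). Ccl4 and Cxcl10 reached the minimum of 50 UMIs only through the 397 cells of SM/J, the group in which they were high, so nothing is read from the count of 4.

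Ccl3 and Ccl4, which activated lymphocytes and myeloid cells release, were mainly products of other cells than monocytes. Basophil-like cells held 73.0%, 75.8%, 66.6% and 52.0% of the Ccl3 UMIs and 62.2%, 76.8%, 65.1% and 53.2% of the Ccl4 UMIs. All 40, 56, 15 and 11 basophil-like cells had a UMI of each gene. Their levels were 7976, 6877, 6406 and 7690 CPM for Ccl3 and 11610, 10280, 9544 and 9974 CPM for Ccl4.

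NK cell-like cells, 98, 67, 60 and 52 in number, held both genes at higher CPM than monocyte-like and Prg4-gated cells in each group. Ccl4 stood at 1262, 1704, 775 and 729 CPM in them and Ccl3 at 330, 663, 440 and 214 CPM. By UMIs the Prg4-gated cells of SM/J at 20 months held more, with 193 of Ccl3 and 159 of Ccl4, against 42 and 143 in its NK cell-like cells. Of NK cell-like cells with Ccl3, 75.4%, 75.5%, 67.9% and 66.7% also had Ccl4, against 72.5%, 76.1%, 60% and 48.1% of all of them. The age ratio of Ccl3 was 1.01 (0.71 to 1.31) in BL/6. In SM/J it was -1.04 (-1.61 to -0.47). The BL/6 aliquots gave 288, 309 and 392 CPM when 12 months old, against 390, 790 and 1007 at 20 months. For SM/J the values were 284, 469 and 600, against 96.2, 210 and 256. The BL/6 ranges thus touched and the SM/J ranges did not. For each strain 1 of 2 members with enough UMIs passed 2-fold in NK cell-like cells, with backgrounds of 4.24% in BL/6 and 3.43% in SM/J. Other response genes of NK cell-like cells leaned the same way as Ccl3 with age in BL/6: 6 of 7 handling and immediate early genes were above 0, with a median of 0.71, and the median of 7 NF-kB response genes was 0.48, against 0.01 over all genes. In SM/J these medians were 0 (4 genes) and 0.36 (3 genes). At 20 months Ccl3 and Ccl4 were lower in SM/J than in BL/6 by -1.63 (-2.14 to -1.14) and -1.22 (-1.50 to -0.95), where the median was -1.21 for NF-kB response and -0.78 for handling genes. The part of handling in these ratios was not tested. T cell-like cells held Ccl4 at 104, 45.1, 41.2 and 39.0 CPM.

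In monocytes Ccl3 and Ccl4 were low, and Ccl4 was lower at 20 months in BL/6. Classical cells held Ccl3 at 54.3, 36.7, 33.2 and 19.4 CPM and Ccl4 at 27.2, 12.8, 23.2 and 17.1 CPM. Nonclassical cells held Ccl3 at 50.5, 40.6, 13.4 and 24.1 CPM and Ccl4 at 45.5, 16.5, 7.20 and 9.97 CPM. The age ratio of Ccl4 in BL/6 was -1.03 (-1.54 to -0.52) in classical and -1.41 (-1.83 to -1.0) in nonclassical cells. Its nonclassical aliquots did not overlap, at 33.4, 45.9 and 54.7 CPM against 9.66, 13.9 and 26.1, but the classical ones did, with 16 to 37.9 and 8.29 to 17.8.

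NK cell transcripts moved the same way as Ccl4. The 6 NK markers summed to 18.5 and 2.69 CPM in classical cells of BL/6 at 12 and 20 months, with 4 and 5 of 6 detected, and to 15.9 and 3.50 CPM in its nonclassical cells, with 5 of 6 detected. In SM/J they summed to between 1.66 and 8.85 CPM over both classes. Their part in the Ccl4 difference was not tested. The 6 basophil markers summed to 0, 6, 0 and 0 UMIs in classical cells and to 1, 14, 1 and 0 in nonclassical cells. The part of basophil RNA in the Ccl3 and Ccl4 levels was not tested either.

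At 12 months nonclassical cells of SM/J held less Ccl3 and Ccl4 than those of BL/6, by -1.84 (-2.35 to -1.34) and -2.50 (-3.14 to -1.89). At 20 months the ratios were -0.73 (-1.32 to -0.18) and -0.67 (-1.57 to 0.15). B cell transcripts were higher in the nonclassical cells of SM/J: the 6 B cell markers summed to 33.4, 37.1, 597 and 189 CPM. The 6 NK markers went the same way as Ccl3 and Ccl4, with 15.9 CPM in BL/6 against 3.6 in SM/J at 12 months and 3.50 against 1.66 at 20 months. The 6 erythroid markers in the same cells summed to 49.7, 1126, 2293 and 79.8 CPM, with 4, 6, 5 and 4 of them detected. Without the cluster that held the B cell markers the 12-month ratios were -1.70 and -2.37. The part of NK and erythroid RNA in these ratios was not tested.

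Cxcl10, an interferon-induced chemokine, was carried by very few cells. Classical cells held 34, 3, 44 and 4 UMIs, in 8, 2, 7 and 3 cells, which gives 14.7, 0.672, 48.7 and 4.55 CPM. The 3 highest cells held 79.4% of these UMIs in BL/6 at 12 months and 88.6% in SM/J at 12 months. The 12-month groups were higher in both strains, by their intervals, but the sums were under 50 UMIs in each age comparison. Between strains at 12 months the ratio was 1.67 (1.01 to 2.32), and 1 aliquot of SM/J held 33 of its 44 UMIs. Without that aliquot SM/J stood at 16.2 CPM, the ratio was 0.13, and the 45 UMIs left were under the minimum. Nonclassical cells held 1, 1, 0 and 0 Cxcl10 UMIs, near the limit of detection at this depth.

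Prg4-gated macrophages held 3, 0, 0 and 67 Cxcl10 UMIs, the last in 18 of 397 cells. For SM/J at 12 months 0 UMIs in 35 cells leaves room for up to 5.81 CPM, and for BL/6 at 20 months for up to 5.11 CPM, against 11.5 CPM (8.92 to 14.6) in SM/J at 20 months. The log2 ratios of SM/J at 20 months to these values had lower limits of 0.58 and 0.74, which are below 2-fold, and the ratios fitted against 0 are no measure of size.

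Cxcl16, the membrane-bound ligand of Cxcr6, was low throughout. It stood at 16.4, 10.3, 18.8 and 17.1 CPM in classical cells, at 2.09, 2.47, 2.94 and 5.81 CPM in nonclassical cells, and at 52.4, 27.3, 38.7 and 38.5 CPM in Prg4-gated cells. Prg4-gated cells were thus above classical cells, and classical above nonclassical, in each group. Its age ratio in classical cells of BL/6 was -0.62 (-1.22 to -0.01), and its strain ratios were 0.19 (-0.67 to 1.00) and 0.68 (-0.20 to 1.49). Of the proteases that release it, Adam17 was higher in SM/J by 1.00 (0.67 to 1.34) in classical cells at 12 months and by 1.21 (1.00 to 1.42) in nonclassical cells at 20 months.

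Platelets, which store other chemokines, held few or no UMIs of the members listed here. The 150 and 173 platelet-like cells of BL/6 had 0 UMIs of Ccl3, Ccl4 and Cxcl10, which allows a share of up to 2.0% and 1.73% of cells with a UMI. They had 3 and 3 UMIs of Ccl6, 0 and 3 of Ccl9, 2 and 3 of Cxcl2 and 3 and 4 of Cxcl13. Their depth was low, so a low level was not detectable. In SM/J 64 and 24 cells of a platelet-type cluster that stayed unnamed held 0 UMIs of Ccl2, Ccl3, Ccl4, Cxcl10 and Cxcl16. Their median depth was 674 and 773.5 UMIs, so a low level was not detectable there either, and their other members are not reported here.

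Counted over the members with enough UMIs, classical cells of BL/6 had 2 of 7 apart with age, Cxcl2 higher and Ccl4 lower, where 3.13% of all genes with enough UMIs were apart. In SM/J it was 0 of 4, with a background of 3.37%. Between strains it was 2 of 8 at 12 months, Cxcl2 and Cxcl10, both higher in SM/J (background 6.63%), and 1 of 7 at 20 months, Cxcl2 (7.4%). Nonclassical cells had 2 of 6 apart with age in BL/6, again Cxcl2 higher and Ccl4 lower (2.92%), and 0 of 5 in SM/J (1.86%). Between strains they had 3 of 5 at 12 months, Cxcl2 higher and Ccl3 and Ccl4 lower in SM/J (7.53%), and 1 of 6 at 20 months, Cxcl2 (5.78%). Each group enters 1 age and 1 strain comparison. Each age comparison lies within 1 multiplexed run, and both strain comparisons span the same 2 runs.

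**Figure D4:**
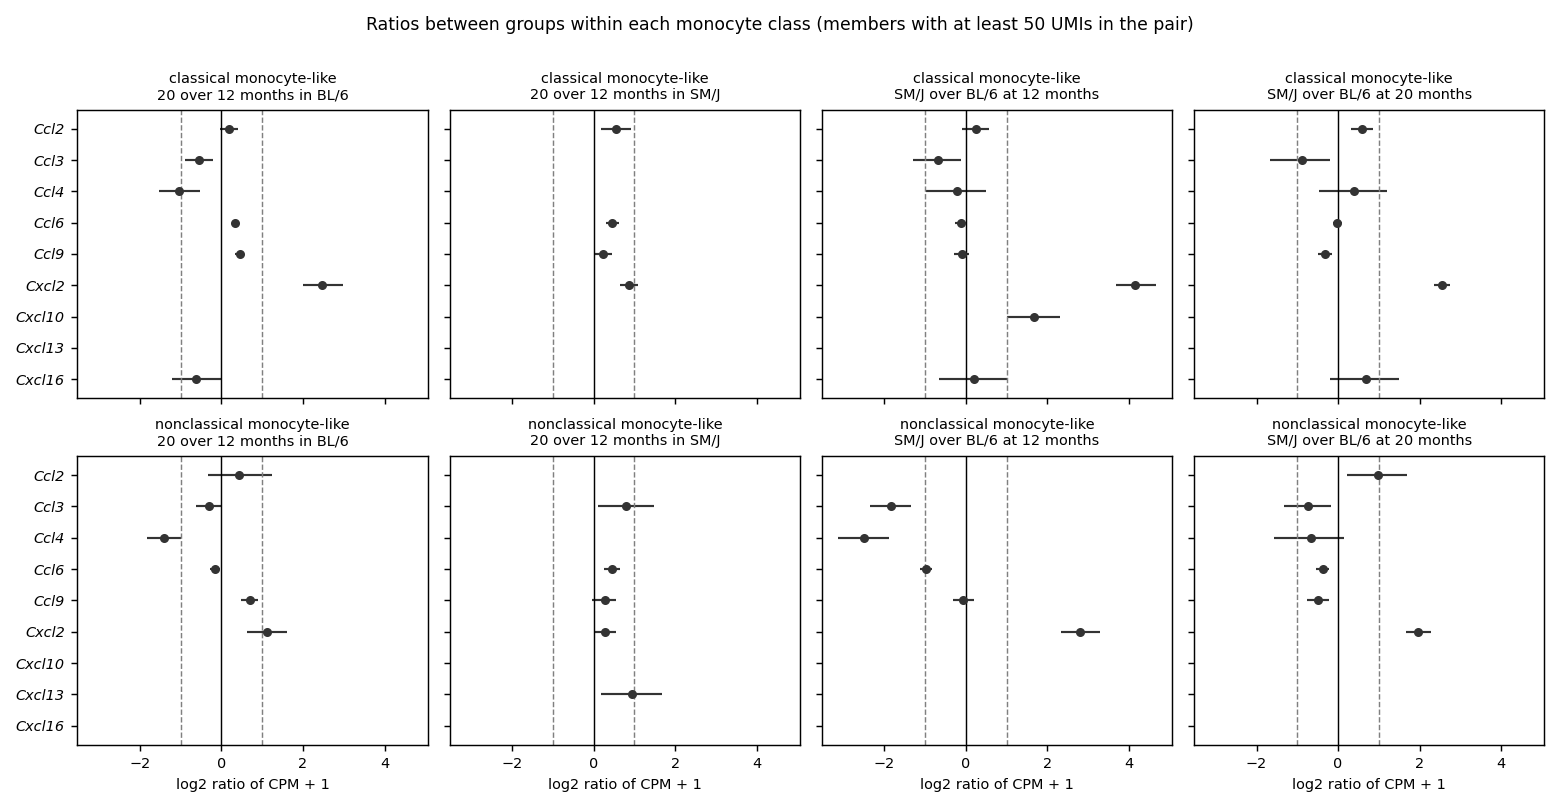
Log2 ratios of CPM + 1 with 95% intervals for counting error, in classical and nonclassical monocyte-like cells and each of the 4 comparisons. Only members with at least 50 UMIs in the pair are drawn, and dashed lines mark 2-fold. Cxcl2 lies to the right of the line in both strain comparisons, at 4.16 and 2.55 in classical cells, and with age in BL/6 at 2.47.

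Genes that respond to the same signals gave mixed pictures beside the members. Of 13 interferon response genes with enough UMIs, 13 were at least 2-fold lower at 20 months in classical cells of BL/6, with a median ratio of -2.03 against 0.02 over all 8154 genes. In SM/J it was 9 of 10, with a median of -1.85. Cxcl10 stood lower at 20 months in the same 2 comparisons. Between strains, classical cells of SM/J had 6 of 15 at least 2-fold higher and 1 lower at 12 months, with a median of 0.93. At 20 months 5 of 9 were higher and 0 lower, with a median of 1.04. Prg4-gated cells of SM/J had 2 of 4 lower at 12 months (median -1.38) and 6 of 10 higher at 20 months (median 1.09). In Prg4-gated cells of SM/J 0 of 10 interferon genes had a ratio above 0 with age and 3 were at least 2-fold lower, with a median of -0.57. No direction with age is read for Cxcl10 in those cells, since its 67 UMIs came from 18 of 397 cells at 20 months and 0 UMIs from 35 cells at 12 months.

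Of 15 NF-kB response genes, 3 were at least 2-fold higher at 20 months in classical cells of BL/6: the cytokine Il1b by 1.2, the endotoxin co-receptor Cd14 by 1.03 and the lectin receptor Clec4e by 1.04. There 12 of 15 were above 0, with a median of 0.37 against 0.02 over all genes. In SM/J 2 of 13 were higher, Cd14 by 1.14 and Clec4e by 1.13, but only 5 of 13 were above 0 and the median was -0.23. At 12 months 13 of 13 were above 0 in SM/J over BL/6, with a median of 0.68, but only Nfkbia (1.34) and Nfkb2 (1.09) passed 2-fold. At 20 months the median was 0.16, and 1 of 15, the cytokine Tnf, was lower by -1.64. Of genes of handling and immediate early response, 1 of 13 was apart with age in BL/6 (Ier3, by 2.18), 0 of 10 in SM/J, 0 of 10 between strains at 12 months and 1 of 13 at 20 months (Egr1, by 1.46). Their medians in these comparisons were 0.20, -0.10, 0.32 and 0.13, with 11 of 13, 4 of 10, 9 of 10 and 8 of 13 above 0, so most leaned the same way as Cxcl2 with age in BL/6 and between strains at 12 months. The part of handling in the Cxcl2 ratios was not tested.

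Few receptors of the members were read deeply enough in monocytes. Ccr1, the receptor of Ccl3, Ccl6 and Ccl9, was higher at 20 months in classical cells of SM/J by 1.73 (1.1 to 2.4), from 28.8 to 97.9 CPM. Cxcr5, the B cell receptor of Cxcl13, stood at 16.7 CPM in nonclassical cells of SM/J at 12 months, higher than in BL/6 of that age by 3.64 (2.33 to 4.16), and was lower at 20 months in SM/J by -1.38 (-2.48 to -0.35), as the B cell markers of these cells were. Of 19 other chemokine ligands measured, 1 to 4 had enough UMIs in each monocyte comparison, among them Ppbp and Pf4, both platelet chemokines. Ppbp was higher at 20 months in classical cells of BL/6 by 1.46 (1.16 to 1.76), while the 4 platelet markers other than Pf4 and Ppbp there summed to 36.6 and 95.9 CPM.

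Joint detection in classical cells differed from pair to pair. Among classical cells with Ccl9, 96.3%, 97.9%, 95% and 97.8% also had Ccl6, as did 95.5%, 97.4%, 95.1% and 95.3% of all classical cells. Of classical cells with Ccl2, 9.64%, 28.7%, 48.8% and 65.1% had Cxcl2, against 7.32%, 21.4%, 47.5% and 60.4% of all. Of the 31, 41 and 10 classical cells with Ccl4 in the first 3 groups, 35.5%, 31.7% and 20.0% had Ccl3, against 22.0%, 17.5% and 11.5% of all. Cells with more UMIs show more genes, and these shares were not corrected for depth.

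Likeness was measured over 28 class-by-group sums, those of the 7 classes with at least 20 cells in every group (B, NK and T cell-like, dendritic, both monocyte classes and Prg4-gated macrophages). Basophil-like cells, which held Ccl6 and Ccl9 at higher CPM than monocytes and most of the Ccl3 and Ccl4 UMIs of each group, had 15 and 11 cells in SM/J and are left out. Across these sums, which share groups and depth, Ccl2 and Ccl6 had a Pearson r of 0.903 and Ccl6 and Ccl9 of 0.869, as a description of these sums. Among 11309 other genes, Ccl2 was most like Ms4a8a (0.957), Cd14 (0.948) and Fn1 (0.945), and Ccl6 like Ifitm3 (0.953), Cd14 (0.95) and Gda (0.949). Ccl9 was most like Tnfsf13 (0.95), Fcgr3 (0.948) and Ctbp2 (0.945). Cxcl2 was most like Mt1 (0.922), Lyz1 (0.901) and Bst1 (0.885), and Cxcl13 like Prg4 (0.980), Alox15 (0.967) and C4b (0.965). Since Prg4 chose the macrophage class, the likeness of Cxcl13 to it is partly set by that choice. Ccl3 was most like Tnfsf12 (0.849), Aoah (0.836) and Selenon (0.829), and Ccl4 like Dnajc1 (0.890), Il12rb2 (0.883) and Klrk1 (0.881). Cxcl16 was most like Gm17268 (0.945), the gene that overlaps Ccl2, Cd14 (0.940) and Tbxas1 (0.927), and Cxcl10 like Galm (0.669), Hopx (0.664) and Slfn3 (0.653).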

How the data were processed

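UMI counts per gene and cell were deposited as filtered 10x matrices made with Cell Ranger 7.0.1 per the file headers, against mm10 per the submitters' processing notes, which also name Seurat 4.3.0. For the strand setting, cell filters and demultiplexing, settings are not given in these sources. Cells with under 500 UMIs, under 200 genes or over 10% mitochondrial UMIs, and 125 called doublets (Scrublet in scanpy 1.11.5, expected rate 0.06), were left out. Cells were clustered on 2000 variable genes without chemokine genes (30 components, 15 neighbours, Leiden resolution 1), giving 26 clusters, 1 unnamed. Of the 12-month cells, 16 in BL/6 and 24 in SM/J had a leading tag of the other age and entered no aliquot. Counts were summed per class and group and scaled to CPM. Intervals are exact Poisson for sums, conditional binomial for ratios with a pseudocount of 1 CPM and Clopper-Pearson for shares, all at 95%, and cover counting error only. A count of 0 allows 3. The ratios were tested on simulated counts. All 9 members were named, with the 3 most similar genes of each and genes of fixed lists that were 2-fold apart in monocytes, some given only as counts. Motifs were searched on both strands, and the kappaB consensus is the usual degenerate form. The members and lists were chosen with earlier results of these data known. Other settings tried included TMM scaling (edgeR 4.0.16), other filters, resolutions and pseudocounts, and each aliquot left out. Coordinates are from the GENCODE annotation of GRCm38. Some genes of the lists are counted but not reported here by name.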

Additional observations from a re-analysis of the deposited data

Results flagged for a closer look

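Ccl3 in NK cell-like cells moved in opposite directions with age in the 2 strains, with a log2 ratio of 20 over 12 months of 1.01 in BL/6 and -1.04 in SM/J, and the difference between these ratios was not tested because each sets 1 group against 1. The values rest on 181 and 197 UMIs in BL/6 and on 75 and 42 UMIs in SM/J. In BL/6 the handling and immediate early genes of these cells had a median ratio of 0.71.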

How the results depend on the processing

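Of 189 values for the counts of members at least 2-fold apart under other settings, 150 stayed within 1.5 times the reported count and 39 did not. Of 885 values for the 48 member ratios, 832 stayed within the reported interval, 53 did not, and none that was past 2-fold changed sign. In classical cells the count with age in BL/6 (2 as reported) became 1 with a pseudocount of 10 CPM and 1 with a 5% mitochondrial limit. With age in SM/J (0 as reported) it was 1 without the minimum of 50 UMIs, 1 with a minimum of 20, 1 with the 5% limit and 2 with classes taken from each cell's own markers. Between strains at 12 months (2) that last choice gave 1. At 20 months (1) it was 2 with TMM scaling, 3 without the minimum, 2 with a 20% mitochondrial limit, 3 at resolution 0.5 and 2 with own-marker classes. In nonclassical cells the count with age in BL/6 (2) became 1 with a pseudocount of 10, and that in SM/J (0) became 1 without the minimum, with the minimum of 20, with the 5% limit and at resolution 0.5. Between strains at 20 months (1) it was 2 without the minimum, with the minimum of 20, at resolution 0.5, with doublets kept and, chosen after seeing the data, without cluster 17. At resolution 0.5 the count lower in nonclassical than classical cells in 4 of 4 groups (2) was 0, because the monocytes of SM/J then fell into 1 cluster. In Prg4-gated cells a minimum of 10 Prg4 UMIs, chosen for these counts after seeing the data, gave 4 in place of 2 between strains at 12 months and 3 in place of 5 over nonclassical cells, and a minimum of 2 changed none of the 6 counts. Leaving out 1 aliquot at a time gave, for classical cells, 1 to 3 and 0 to 1 with age and 1 to 3 and 1 to 2 between strains, for nonclassical cells 1 to 2, 0 to 1, 3 to 4 and 1 to 3, and 2 throughout for the 4-group count. The Cxcl2 ratios ranged from 1.97 to 3.08 (age, BL/6), 3.58 to 4.77 and 2.35 to 3.39 (strains) in classical cells, and from 0.76 to 1.48, 2.3 to 3.21 and 1.51 to 2.99 in nonclassical cells. Ccl4 with age in BL/6 ranged from -1.39 to -0.71 and from -1.87 to -1.07, and Cxcl10 between strains at 12 months from 1.13 to 2.28 in the 16 settings that gave at least 50 UMIs. Without the SM/J aliquot that held 33 of 44 UMIs that ratio was 0.13 and the call was lost. TMM scaling shifted strain ratios by -0.19 to -0.12. Taking the B cell level off was also chosen after seeing the data. No paired analysis was possible because each strain and age is 1 sum of cells with no replicate number to pair; the age ratios are already within a run.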

Other observations

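Dendritic cell-like cells, 29, 52, 49 and 46 in number, spread widely between groups in Ccl6, Ccl9 and Cxcl2. They joined 2 clusters in different proportions: 21, 39, 5 and 20 cells were in the one led by Cd209a, Retnla and Mrc1, and 8, 13, 44 and 26 in the one whose leading genes included Siglech and Bst2. The levels were not split by cluster. Their Ccl6 stood at 112, 845, 118 and 2891 CPM, their Ccl9 at 148, 455, 57.6 and 885 CPM, and their Cxcl2 at 0, 59.6, 57.6 and 1032 CPM. In SM/J at 20 months 21 of 46 of these cells had Ccl6 and 25 had Cxcl2, and the 3 highest cells held 32.0% and 35.0% of the UMIs. T cell-like cells held 3, 27, 13 and 5 Cxcl10 UMIs, those at 20 months in BL/6 in 17 of 530 cells.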
